A study of Mus musculus with 9 samples.

Results

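Transcripts of 10 genes of the retinoid visual cycle were followed in bulk RNA-seq of mouse retina at postnatal day 21 (P21), a small set among the 55487 genes measured. They were Rdh12, Rdh8, Abca4 and Rbp3, which serve the photoreceptors, Rlbp1, Rgr and Rdh10, which are used in Müller glia, and Rpe65, Lrat and Rdh5 of the pigment epithelium. Members were taken by gene symbol from a list made with earlier results of these data known, and each symbol matched 1 row. Retinas of 3 genotypes on a C57 BL/6J background were compared, with 3 libraries per genotype and the retinas of 2 animals pooled in each library. Cre-negative (Cre-) retinas, which the labels give as WT, were the control. Triple heterozygous (tHet) retinas carried 1 floxed allele of each of Tet1, Tet2 and Tet3 together with the Chx10-Cre-GFP transgene. Triple mutant (Tet tcKO) retinas carried the same transgene and were homozygous for the floxed alleles of all 3 genes. These genes encode the dioxygenases that oxidise methylated cytosine. Chx10-Cre is active in retinal progenitors and is mosaic, so Cre+ animals had been in-crossed to give tHet and Tet tcKO animals 2 copies. The pigment epithelium does not derive from these progenitors. Cre- animals came from Cre- breeders, so that Cre and breeding line cannot be told apart in a comparison with Cre-.

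The visual cycle returns the chromophore of the photoreceptor opsins to its light-sensitive form. Light turns bound cis-retinal into all-trans-retinal, which is flipped across the disc membrane by ABCA4, reduced to retinol by RDH8 and RDH12 and carried between cells by the interphotoreceptor retinoid-binding protein that Rbp3 encodes. In the pigment epithelium LRAT esterifies the retinol, RPE65 isomerises the ester and RDH5 oxidises the product back to cis-retinal, while Müller glia hold the cis-retinoid carrier CRALBP (Rlbp1), the retinal-binding opsin RGR and the retinol dehydrogenase RDH10. The last 3 genes are also used by pigment epithelium, so their bulk values join both cell types.

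Values are reads on a gene scaled to a fixed library total (counts per 1000000 reads on genes, CPM). A gene was called when its log2 fold change was at least 1 in size and its adjusted p was under 0.01 in limma, fitted on log2(CPM + 0.5) over the 21330 genes that reached 0.5 CPM in at least 3 libraries. A fold change on this scale understates the change of low genes. Libraries held 9627927 to 21108256 reads on genes, so that 3 reads, taken as the floor of detection, stood for 0.142 to 0.312 CPM. The floor covers counting error only. Whole-gene Tet3 RNA had a log2 fold change of -0.99 (SE 0.25, limma adjusted p = 0.0174) in Tet tcKO versus Cre-, with 99.2 to 152 CPM against 213 to 268 CPM, and Tet1 and Tet2 overlapped between the genotypes. Reads on the floxed exons were not measured separately here. The study itself reports that the share of reads spliced into the floxed Tet exons decreased from Cre- through tHet to Tet tcKO. The labelled tissue held its defining transcripts, since the 8 rod markers summed to 30853 to 36890.5 in Cre-, 27146 to 33509 in tHet and 3920.0 to 11223 in Tet tcKO (CPM). A single noncoding transcript, CT010467.1, took 28.7% of the reads of Tet tcKO replicate 3 and 3.72% of those of tHet replicate 3, against 0.0409% to 0.226% elsewhere. Such a share lowers the CPM of every other gene in that library. The fold changes of the 10 genes in comparisons with Tet tcKO are therefore also given without Tet tcKO replicate 3.

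All 10 genes passed the filter on low values. In Tet tcKO versus Cre-, 6 of them fell (Rdh8, Rdh12, Rlbp1, Rgr, Rpe65 and Lrat) and 0 rose, where 1.57% of all tested genes fell and 2.03% rose. In Tet tcKO versus tHet, 7 fell, the same 6 and Rdh5, and 0 rose, where 1.61% of all tested genes fell and 1.39% rose. The Tet tcKO libraries are shared by the 2 comparisons. Their median log2 fold change was -1.61 against Cre- and -1.72 against tHet, beside 0.00 and -0.06 over all tested genes. Every Tet tcKO library lay below every Cre- and every tHet library for 9 of the 10 genes, which held for 9.6% of tested genes against Cre- and 9.68% against tHet. Rdh10 alone among the 10 lay the other way, with every Tet tcKO library above all others, which held for 10% and 7.35% of tested genes. Without Tet tcKO replicate 3 the calls numbered 2 against Cre- (Rdh8 and Rlbp1) and 3 against tHet (Rdh8, Rdh12 and Lrat), and without Tet tcKO replicate 1 they numbered 3 against Cre- (Rdh8, Rdh12 and Rlbp1) and 6 against tHet. With TMM scaling in the limma fit 3 calls remained against Cre- (Rdh8, Rdh12 and Rlbp1), where the log2 fold changes of Rgr, Rpe65 and Lrat were -1.61, -1.86 and -1.60. With CT010467.1 left out of the library totals, 4 fell (Rdh8, Rdh12, Rlbp1 and Rpe65) and 1, Rdh10, rose against Cre-. Against tHet 6 fell and 0 rose. That setting moved the median of all tested genes to 0.14 and 0.07.

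**Figure D1:**
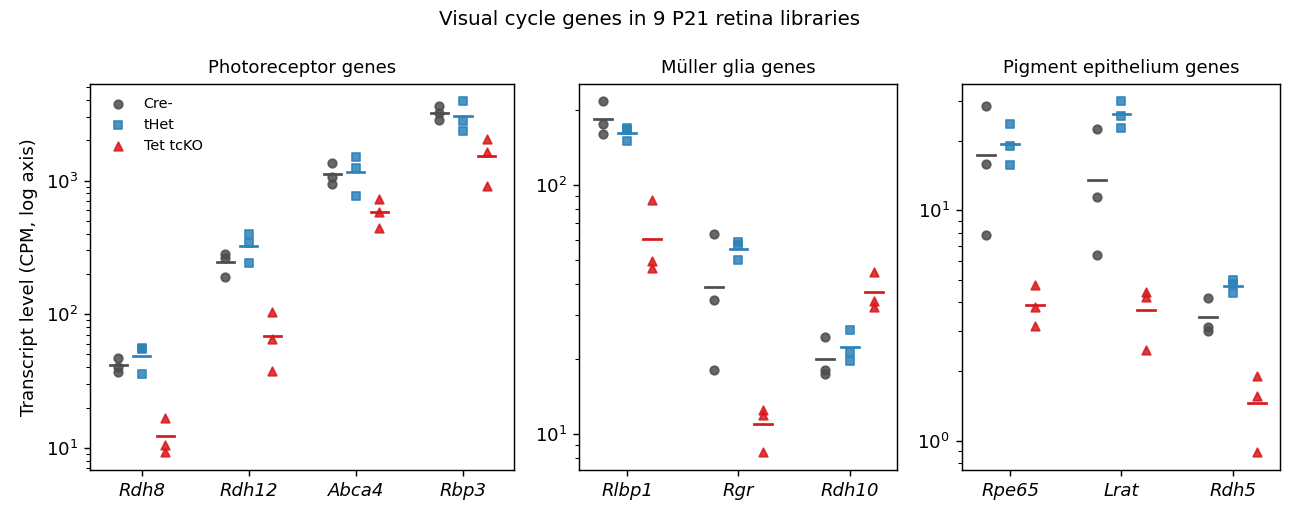
Transcript level (CPM, log axis) of the 10 visual cycle genes in the 9 libraries, grouped by the cell type they serve. Points are libraries, with Cre- in grey, tHet in blue and Tet tcKO in red, and short lines are means. The red points lie below all others for 9 genes and above all others for Rdh10.

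All 4 photoreceptor genes were lower in every Tet tcKO library, and Rdh12 and Rdh8 passed the test. Rdh12, a retinol dehydrogenase of the inner segment (ENSMUSG00000021123, GRCm38 chr12:79208914-79222665, plus strand), was counted at 189, 282 and 262 CPM in the Cre- libraries, 398, 338 and 241 CPM in the tHet libraries and 37.3, 104 and 65.5 CPM in the Tet tcKO libraries. The highest Tet tcKO library lay below the lowest of the others. The Cre- mean was 245 ± 48.9 CPM, the tHet mean 326 ± 79.0 CPM and the Tet tcKO mean 69.1 ± 33.7 CPM (SD, n = 3), and the log2 fold change was -1.92 (SE 0.30, limma adjusted p = 0.000271) against Cre- and -2.32 (SE 0.30, limma adjusted p = 4.69e-05) against tHet. Without Tet tcKO replicate 3 it was called against tHet (-2.34, limma adjusted p = 0.00609) and not against Cre- (-1.94, limma adjusted p = 0.0134).

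Rdh8, which reduces all-trans-retinal in the outer segment (ENSMUSG00000053773, GRCm38 chr9:20818503-20826117, plus strand), was counted at 40.2, 46.7 and 37.0 CPM in the Cre- libraries, 54.9, 55.8 and 35.4 CPM in the tHet libraries and 10.5, 16.7 and 9.27 CPM in the Tet tcKO libraries. The Tet tcKO libraries again lay apart from the other 6, which overlapped each other. Its log2 fold change was -1.76 (SE 0.25, limma adjusted p = 0.000128) against Cre- and -1.97 (SE 0.25, limma adjusted p = 4.86e-05) against tHet, and the call stood under each of the 20 alternatives in both comparisons, with -1.60, limma adjusted p = 0.00508 against Cre- and -1.81, limma adjusted p = 0.00320 against tHet without Tet tcKO replicate 3. Rdh8 and Rdh12 kept a similar proportion, since the ratio of Rdh8 to Rdh12 within a library was 0.141 to 0.212 in Cre-, 0.138 to 0.165 in tHet and 0.142 to 0.280 in Tet tcKO, with overlap between all genotypes.

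The transporter and the carrier did not pass the test. Abca4, the retinylidene flippase of the disc rim (ENSMUSG00000028125, GRCm38 chr3:122044443-122180123, plus strand), was counted at 1066, 1362 and 949 CPM in the Cre- libraries, 1242, 1487 and 762 CPM in the tHet libraries and 585, 726 and 439 CPM in the Tet tcKO libraries. The Tet tcKO libraries lay below all others by a margin that was narrow next to tHet replicate 3. The log2 fold change of -0.96 (SE 0.29, limma adjusted p = 0.0559) against Cre- and -0.97 (SE 0.29, limma adjusted p = 0.0560) against tHet did not pass the test. It passed under 1 of the 20 alternatives in each comparison, with upper-quartile scaling against Cre- (-1.01, limma adjusted p = 0.00854) and without tHet replicate 3 against tHet (-1.25, limma adjusted p = 0.00804). Leaving out Tet tcKO replicate 3 gave a smaller difference from Cre- (-0.77, limma adjusted p = 0.158) and from tHet (-0.78, limma adjusted p = 0.151).

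Rbp3, the most abundant of the 10 in CPM (ENSMUSG00000041534, GRCm38 chr14:33954003-33964216, plus strand), was counted at 3598, 3196 and 2831 CPM in the Cre- libraries, 2806, 3924 and 2354 CPM in the tHet libraries and 1645, 2032 and 903 CPM in the Tet tcKO libraries. All Tet tcKO libraries lay below the others, with replicate 3 the lowest. The log2 fold change was -1.14 (SE 0.35, limma adjusted p = 0.0563) against Cre- and -1.03 (SE 0.35, limma adjusted p = 0.0957) against tHet, neither of which passed in limma. Against tHet it passed under 0 of the 20 alternatives and against Cre- under 2, on the recovered reads, with edgeR's quasi-likelihood test (-1.13, adjusted p = 0.00859) and with DESeq2 (-1.14, adjusted p = 7.58e-06). Rbp3 also did not pass in limma without Tet tcKO replicate 3, against Cre- (-0.80, limma adjusted p = 0.136) or against tHet (-0.69, limma adjusted p = 0.195).

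Ratios within a library, in which scaling plays no part, were compared for Abca4 and Rbp3 against Rdh12. The ratio of Abca4 to Rdh12 was 3.62 to 5.63 in Cre-, 3.12 to 4.40 in tHet and 6.69 to 15.7 in Tet tcKO, so every Tet tcKO ratio lay above the other 6. The exact two-sided permutation p was 0.1 in each comparison with Tet tcKO, the smallest that 3 against 3 libraries can give, and 0.185 after adjustment over the 48 tests made on 16 such ratios. The ratio of Rbp3 to Rdh12 overlapped with Cre- (10.8 to 19.0 against 13.8 to 44.0) and lay above tHet (7.05 to 11.6, exact permutation p = 0.1, adjusted 0.185).

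Photoreceptor markers moved in the same libraries. Of 8 rod markers 6 fell and 0 rose in both comparisons with Tet tcKO, and of 8 cone markers 5 rose and 1, Pde6h, fell. The cone markers summed to 516 to 651 in Cre-, 611 to 686 in tHet and 1074 to 1581 in Tet tcKO (CPM). Of 5 markers of both photoreceptor types 3 fell in both comparisons (Rcvrn, Prph2 and Rom1, at -1.73, -3.39 and -1.93 in log2 against Cre-), and the 5 summed to 4481 to 5074 in Cre-, 4101 to 5025 in tHet and 1417 to 2248 in Tet tcKO (CPM). Crx, a photoreceptor transcription factor gene of the same list, was at 1084 to 1159.8 CPM in Cre- and 690.0 to 991 CPM in Tet tcKO and did not pass the test. It was chosen as a reference after its values were seen, and the ratio of each of the 4 genes to it was lower in every Tet tcKO library than in any other (exact permutation p = 0.1 for each, adjusted 0.185). The markers of the list that fell were not used as references. Nor was Aipl1, which did not pass the test either (-0.57, limma adjusted p = 0.171, against Cre- and -0.52, limma adjusted p = 0.218, against tHet). The order of the 4 ratios is therefore given for Crx only. In bulk samples, fewer cells of a type and less RNA per cell cannot be told apart, and the part of the cell makeup in the values of the 4 genes was not tested.

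The upstream sequences of the 4 photoreceptor genes are shown because 2 of these genes were called and 2 did not pass the test. All 4 were lower in every Tet tcKO library, so the 2 groups are set by the thresholds of the call. Each is the run of 250 bases before the RefSeq transcription start, in the GRCm38.p6 build, written 5′ to 3′ on the strand of the gene, and lies at chr9:20818244-20818493 (plus strand) for Rdh8, chr12:79208663-79208912 (plus strand) for Rdh12, chr3:122044210-122044459 (plus strand) for Abca4 and chr14:33953753-33954002 (plus strand) for Rbp3. Capitals mark TAATCC, the core letters bound by CRX and OTX2 (GGATTA when read from the other strand), and TGCTGA, the core letters of sites bound by the factor family of NRL (TCAGCA from the other strand).
Rdh8: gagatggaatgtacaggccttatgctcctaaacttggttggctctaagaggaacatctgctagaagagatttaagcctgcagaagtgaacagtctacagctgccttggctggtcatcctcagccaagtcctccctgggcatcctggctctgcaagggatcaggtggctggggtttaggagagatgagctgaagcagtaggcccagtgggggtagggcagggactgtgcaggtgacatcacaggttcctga
Rdh12: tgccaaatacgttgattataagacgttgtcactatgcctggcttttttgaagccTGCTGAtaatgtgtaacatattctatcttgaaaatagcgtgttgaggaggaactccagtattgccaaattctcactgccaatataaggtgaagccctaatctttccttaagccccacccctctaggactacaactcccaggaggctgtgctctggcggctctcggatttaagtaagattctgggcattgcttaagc
Abca4: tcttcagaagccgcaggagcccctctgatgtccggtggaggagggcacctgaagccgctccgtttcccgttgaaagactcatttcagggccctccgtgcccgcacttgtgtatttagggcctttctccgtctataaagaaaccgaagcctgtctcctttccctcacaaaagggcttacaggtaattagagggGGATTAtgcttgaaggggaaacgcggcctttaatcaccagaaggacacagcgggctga
Rbp3: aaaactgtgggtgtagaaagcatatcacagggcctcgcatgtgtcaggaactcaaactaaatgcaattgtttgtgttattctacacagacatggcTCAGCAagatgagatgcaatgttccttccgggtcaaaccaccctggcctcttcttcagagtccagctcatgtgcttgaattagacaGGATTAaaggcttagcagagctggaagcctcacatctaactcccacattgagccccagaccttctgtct
Of the 10 genes, 9 matched a RefSeq promoter window of 300 bases, of which 250 lie before and 50 after the start. TAATCC stood in the windows of Abca4 at bases -58 to -53 and of Rbp3 at bases -69 to -64, and not in those of Rdh8 and Rdh12. TGCTGA stood in the windows of Rbp3 at bases -155 to -150 and of Rdh12 at bases -196 to -191, and just past the start in those of Rdh12 and Rdh8. No match of one motif overlapped a match of the other. Over all 32851 windows, 7.06% held TAATCC and 19.5% held TGCTGA on either strand, and these letters are a description of the windows and not of binding.

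**Figure D2:**
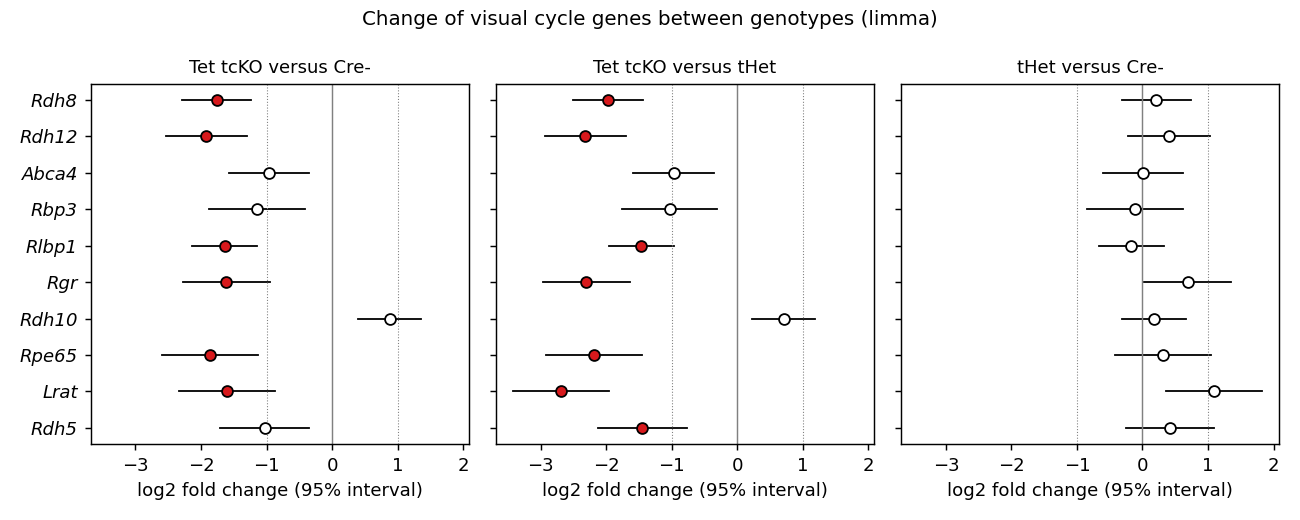
Log2 fold change of each visual cycle gene with its 95% interval from limma in the 3 comparisons. Filled points were called (size at least 1 and adjusted p under 0.01), and dotted lines mark a log2 fold change of 1 in either direction. In the comparisons with Tet tcKO, 6 and 7 genes are filled on the lower side, and Rdh10 stands alone on the higher side at 0.88 and 0.71.

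Of the genes used in Müller glia, the carrier and the opsin fell and the dehydrogenase did not. Rlbp1, which encodes CRALBP (ENSMUSG00000039194, GRCm38 chr7:79374870-79387048, minus strand), was counted at 217, 159 and 176 CPM in the Cre- libraries, 166, 150.3 and 169.8 CPM in the tHet libraries and 46.1, 86.5 and 49.5 CPM in the Tet tcKO libraries. Cre- and tHet overlapped, and the 3 Tet tcKO libraries lay well below both. Its mean was 3.03-fold lower than in Cre- and 2.67-fold lower than in tHet, with a log2 fold change of -1.64 (SE 0.24, limma adjusted p = 0.000132) and -1.47 (SE 0.24, limma adjusted p = 0.000485). The call against Cre- stood under all 20 alternatives, and that against tHet was lost without Tet tcKO replicate 3, which gave -1.52, limma adjusted p = 0.00509, against Cre- and -1.35, limma adjusted p = 0.0105, against tHet.

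Rgr, an opsin that binds all-trans-retinal (ENSMUSG00000021804, GRCm38 chr14:37034909-37048964, minus strand), was counted at 63.6, 18.1 and 34.4 CPM in the Cre- libraries, 59.0, 49.9 and 57.5 CPM in the tHet libraries and 11.9, 12.5 and 8.43 CPM in the Tet tcKO libraries. The Cre- libraries differed among themselves by 3.52 times and the tHet libraries by 1.18 times, and the lowest Cre- library stood not far above the Tet tcKO libraries. The log2 fold change was -1.62 (SE 0.32, limma adjusted p = 0.00259) against Cre- and -2.31 (SE 0.32, limma adjusted p = 0.000103) against tHet. Against Cre- the call was lost under 8 of the 20 alternatives, with log2 fold changes of -1.17 to -1.69, among them the fits without Cre- replicate 1 (-1.17, limma adjusted p = 0.0101), Cre- replicate 3, Tet tcKO replicate 1 or Tet tcKO replicate 3. Without that last library the value was -1.45, limma adjusted p = 0.0533, and the call against tHet was lost too (-2.14, limma adjusted p = 0.0115).

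Rdh10, which oxidises retinol to retinal (ENSMUSG00000025921, GRCm38 chr1:16105774-16133734, plus strand), was counted at 24.4, 17.9 and 17.3 CPM in the Cre- libraries, 19.6, 26.2 and 21.3 CPM in the tHet libraries and 44.4, 34.1 and 32.2 CPM in the Tet tcKO libraries. It was the only one of the 10 for which all Tet tcKO libraries were the highest. Its log2 fold change of 0.88 (SE 0.23, limma adjusted p = 0.0246) against Cre- and 0.71 (SE 0.23, limma adjusted p = 0.0857) against tHet did not pass, nor did it without Tet tcKO replicate 3 (0.97, limma adjusted p = 0.0255, and 0.80, limma adjusted p = 0.0627), and against Cre- it passed when CT010467.1 was left out of the library totals (1.04, limma adjusted p = 0.00373), a setting that moved the median of all genes to 0.14. Within libraries the ratio of Rdh10 to Rlbp1 was 0.0988 to 0.113 in Cre-, 0.118 to 0.174 in tHet and 0.395 to 0.963 in Tet tcKO (exact permutation p = 0.1 in each comparison, adjusted 0.185). In both comparisons with Tet tcKO this order followed from the values of the 2 genes, since Rdh10 was higher and Rlbp1 lower in every Tet tcKO library. It is no further test there. The ratio was also higher in every tHet library than in any Cre- library.

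Few of the Müller glia markers passed the test. Of 8 markers, 1 (Glul) fell against Cre- and 2 (Glul and Car14) fell against tHet, 0 rose (without Tet tcKO replicate 3, 0 fell and 1 rose against tHet), and the summed level was 1833 to 2451 in Cre-, 1762 to 2322 in tHet and 1340.5 to 2001 in Tet tcKO (CPM). Glul, which encodes glutamine synthetase, was counted at 1159, 840.3 and 1029.6 CPM in the Cre- libraries, 802, 820.2 and 961 CPM in the tHet libraries and 349.9, 514 and 301 CPM in the Tet tcKO libraries, and its groups with Tet tcKO did not overlap. Every Tet tcKO library lay below every Cre- library for 3 of the 8 markers and above for 1 (9.6% and 10% of tested genes). Against tHet these numbered 2 and 3 (9.68% and 7.35%). Sox9 was higher in every Tet tcKO library (36.3 to 53.0 CPM) than in Cre- (25.6 to 31.1 CPM) or tHet (21.8 to 29.1 CPM) but was not called. Dkk3 was at 552 to 910 CPM in Tet tcKO, above tHet (382 to 505 CPM), and overlapped with Cre-. Slc1a3, the glial glutamate transporter gene, was chosen from the list as a reference after its values were seen. Glul, which fell and was among the genes nearest to Rlbp1, and Car14 were not used as references. Set against Slc1a3, the ratio of Rlbp1 was 0.960 to 1.11 in Cre-, 1.02 to 1.24 in tHet and 0.212 to 0.387 in Tet tcKO. The ratio of Rgr to Slc1a3 was 0.110 to 0.325, 0.340 to 0.441 and 0.0544 to 0.0558 in the same order. Both ratios were lower in every Tet tcKO library than in any other (exact permutation p = 0.1 in each comparison with Tet tcKO, adjusted 0.185). Against tHet this order followed from the values of the genes, since Slc1a3 was higher and both genes lower in every Tet tcKO library. It is no further test there. The ratio of Rdh10 to Slc1a3 was 0.0948 to 0.124, 0.139 to 0.178 and 0.153 to 0.208. It was higher in both Tet tcKO and tHet than in Cre- (exact permutation p = 0.1 for each, adjusted 0.185). Tet tcKO and tHet overlapped (exact permutation p = 0.2, adjusted 0.300). Slc1a3 itself was at 164 to 196 CPM in Cre-, 134 to 153 CPM in tHet and 155 to 223 CPM in Tet tcKO, and was lowest in tHet. The 155 CPM was that of Tet tcKO replicate 3, where CT010467.1 lowers the CPM of other genes. The other Tet tcKO libraries were at 217 and 223 CPM, above every Cre- library.

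The pigment epithelium genes were low in all libraries and lowest in Tet tcKO. Rpe65, the retinoid isomerase (ENSMUSG00000028174, GRCm38 chr3:159599175-159625321, plus strand), was counted at 28.6, 7.83 and 15.9 CPM in the Cre- libraries, 23.8, 15.7 and 19.0 CPM in the tHet libraries and 3.80, 4.74 and 3.13 CPM in the Tet tcKO libraries. Cre- replicate 1 was the highest of the 9 libraries and Cre- replicate 2 the lowest outside Tet tcKO, so the Cre- libraries spanned 3.65 times. The log2 fold change was -1.87 (SE 0.35, limma adjusted p = 0.00171) against Cre- and -2.18 (SE 0.35, limma adjusted p = 0.000445) against tHet, and without Tet tcKO replicate 3 neither passed (-1.74, limma adjusted p = 0.0368, and -2.06, limma adjusted p = 0.0213). Without Tet tcKO replicate 1 the value against Cre- did not pass either (-1.86, limma adjusted p = 0.0133).

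Lrat, which esterifies retinol (ENSMUSG00000028003, GRCm38 chr3:82892579-82903973, minus strand), was counted at 22.7, 6.43 and 11.5 CPM in the Cre- libraries, 29.8, 22.9 and 25.8 CPM in the tHet libraries and 4.22, 4.41 and 2.47 CPM in the Tet tcKO libraries. The tHet libraries were all above the Cre- libraries, and the Tet tcKO libraries were all below. The mean was 3.65-fold lower in Tet tcKO than in Cre- and 7.07-fold lower than in tHet, with log2 fold changes of -1.60 (SE 0.35, limma adjusted p = 0.00589) and -2.69 (SE 0.35, limma adjusted p = 5.09e-05). Against tHet the call stood under all 20 alternatives (without Tet tcKO replicate 3, -2.46, limma adjusted p = 0.00688). Against Cre- it was lost under 9 of them, among them the fits without Cre- replicate 1 (-1.15, limma adjusted p = 0.0319), Cre- replicate 3, Tet tcKO replicate 1 or Tet tcKO replicate 3 (-1.37, limma adjusted p = 0.0746).

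Rdh5, which oxidises cis-retinol (ENSMUSG00000025350, GRCm38 chr10:128913593-128922888, minus strand), was the scarcest, at 4.18, 2.99 and 3.11 CPM in the Cre- libraries, 4.97, 4.36 and 4.78 CPM in the tHet libraries and 0.891, 1.91 and 1.57 CPM in the Tet tcKO libraries, or 15 to 101 reads per library. All Tet tcKO libraries were below the others. Its log2 fold change was -1.03 (SE 0.32, limma adjusted p = 0.0639) against Cre-, which did not pass, and -1.45 (SE 0.32, limma adjusted p = 0.00797) against tHet, a call lost under 11 of the 20 alternatives, among them the fits without any 1 tHet library, without Cre- replicate 3 and without Tet tcKO replicate 1 or 3. With Tet tcKO replicate 3 left out, neither the value against Cre- (-1.09, limma adjusted p = 0.0819) nor that against tHet (-1.51, limma adjusted p = 0.0262) passed. Exons of Rdh5 overlap those of Bloc1s1 on the same strand, so reads of the pair could be shared and its values are uncertain.

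The levels of Rpe65, Lrat and Rgr varied in a similar but not equal way from library to library, as did those of Ttr, the transthyretin gene that is abundant in pigment epithelium. Ttr was counted at 86.8, 17.1 and 40.0 CPM in the Cre- libraries, 78.3, 60.3 and 68.2 CPM in the tHet libraries and 16.9, 13.6 and 11.4 CPM in the Tet tcKO libraries. Its libraries stood in nearly the order of those of Rpe65, with Cre- replicate 1 high, Cre- replicate 2 low and Tet tcKO lowest. Ttr was chosen as a reference after its values were seen, and of all tested genes it had the profile nearest to that of Rgr in these libraries. The ratio of Rgr to Ttr was 0.733 to 1.06 in Cre-, 0.753 to 0.842 in tHet and 0.708 to 0.913 in Tet tcKO and overlapped in every comparison. Because of that choice this overlap is a description and not a test. The ratio of Rpe65 to Ttr was 0.329 to 0.459, 0.260 to 0.304 and 0.225 to 0.348 in the same order, and that of Lrat to Ttr was 0.261 to 0.377, 0.378 to 0.381 and 0.217 to 0.324. The ratio of Rdh5 to Ttr was 0.0482 to 0.175, 0.0634 to 0.0723 and 0.0528 to 0.140 and overlapped in both comparisons with Tet tcKO. For Rpe65 and Lrat, Tet tcKO overlapped with Cre-, and with tHet for Rpe65 only, since Lrat to Ttr was lower in Tet tcKO than in tHet (exact permutation p = 0.1, adjusted 0.185). Ttr was also among the genes nearest in profile to Rpe65 and to Lrat, so these overlaps are a description as well. Between tHet and Cre- the 2 ratios moved apart. Rpe65 to Ttr was lower in every tHet library than in any Cre- library, and Lrat to Ttr was higher (exact permutation p = 0.1 for each, adjusted 0.185).

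**Figure D3:**
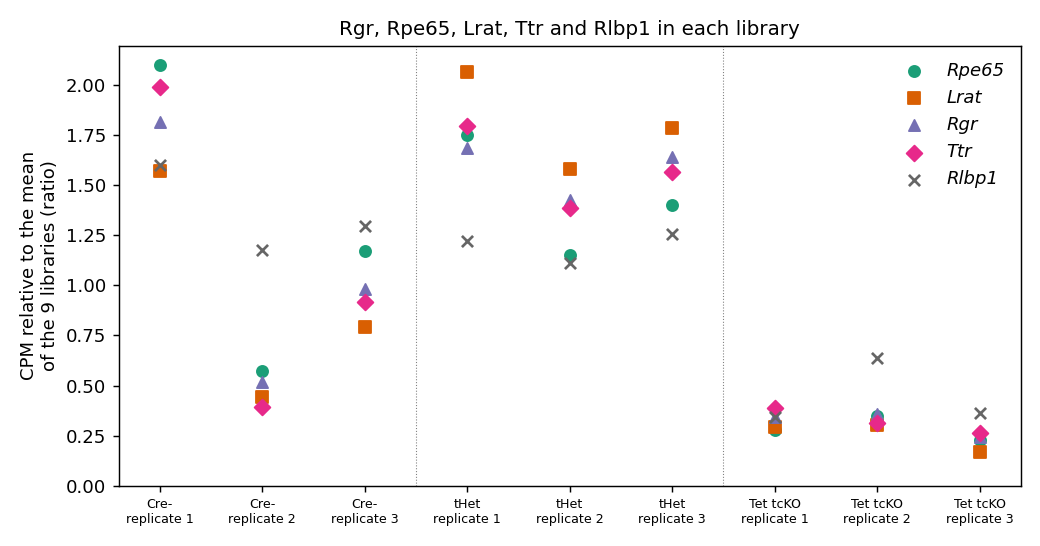
CPM of Rpe65, Lrat, Rgr, Ttr and Rlbp1 in each library, divided by the mean of that gene over the 9 libraries. Rpe65, Lrat, Rgr and Ttr were high in Cre- replicate 1, low in Cre- replicate 2 and lowest in Tet tcKO, while Rlbp1 differed by 1.36 times among the Cre- libraries.

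Other markers of pigment cells did not all follow. Of 10 markers 9 were tested. Against Cre-, 0 of the 9 were called in limma, 2 had an unadjusted p under 0.05, and 0 were called by edgeR or DESeq2. Against tHet, 3 fell (Tyr, Dct and Ttr), beside 0 with edgeR, 2 with DESeq2 and 0 without Tet tcKO replicate 3. Against Cre-, Ttr had a log2 fold change of -1.47 (SE 0.37, limma adjusted p = 0.0167). Best1, a chloride channel gene of pigment epithelium, was counted at 1.22 to 2.00 CPM in Cre- and 1.51 to 2.37 CPM in Tet tcKO. The whole list summed to 52.2 to 142 in Cre-, 139.6 to 210.4 in tHet and 52.8 to 66.9 in Tet tcKO (CPM), so the Tet tcKO range lay below tHet and inside the lower end of Cre-. None of the 10 was at 0 in every library. How much pigment epithelium each retina retained was not measured, and its part in the values of Rpe65, Lrat, Rdh5 and Rgr was not tested.

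The upstream sequences of Rpe65 and Rgr are shown because each had the other among the genes nearest to it across the libraries. They lie at chr3:159598931-159599180 (plus strand) and chr14:37049015-37049264 (minus strand) in GRCm38.p6 and are written in the same way, with TAATCC in capitals (GGATTA from the other strand).
Rpe65: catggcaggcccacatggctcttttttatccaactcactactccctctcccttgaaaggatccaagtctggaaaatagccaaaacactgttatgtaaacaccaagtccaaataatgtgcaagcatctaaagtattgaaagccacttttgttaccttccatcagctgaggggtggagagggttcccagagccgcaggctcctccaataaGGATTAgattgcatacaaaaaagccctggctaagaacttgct
Rgr: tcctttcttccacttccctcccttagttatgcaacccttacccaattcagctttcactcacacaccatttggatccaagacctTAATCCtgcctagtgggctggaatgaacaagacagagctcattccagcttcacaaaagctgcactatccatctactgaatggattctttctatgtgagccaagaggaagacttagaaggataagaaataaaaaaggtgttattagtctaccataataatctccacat
TAATCC stood at bases -42 to -37 before the start of Rpe65 and at bases -167 to -162 before that of Rgr. With Abca4 and Rbp3, 4 of the 9 matched windows held it, and 4 of 9 held TGCTGA (Rdh8, Rdh12, Rbp3 and Rlbp1). The CG dinucleotides in a window numbered 21 for Lrat, 15 for Abca4, 8 for Rlbp1, 5 for Rdh12 and Rdh5, 2 for Rdh8 and Rbp3, 1 for Rpe65 and 0 for Rgr, beside a median of 7 over all windows.

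In tHet versus Cre-, 0 of the 10 genes were called in limma, where 0.0422% of all tested genes were. An unadjusted p under 0.05 was reached by 2, beside 4.55% of all tested genes, and 0 were called by edgeR or DESeq2. All tHet libraries lay above all Cre- libraries for Lrat and Rdh5, an order held by 5.78% of tested genes, and the other 8 overlapped, with 0 all below (5.37% of tested genes). Lrat had a log2 fold change of 1.09 (SE 0.35, limma adjusted p = 0.785), and Rgr of 0.69 (95% interval 0.02 to 1.35). For the photoreceptor genes the intervals ran from -0.22 to 1.02 for Rdh12, -0.32 to 0.74 for Rdh8, -0.60 to 0.62 for Abca4 and -0.84 to 0.62 for Rbp3, so a change of up to about 1 in log2 could not be told from none in these libraries. The pigment cell markers had a median log2 fold change of 0.80 in this comparison, beside 0.06 over all tested genes.

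Levels of different genes were compared per kilobase of exon (CPM per kb). In Cre- they ran from 606 ± 72.4 for Rbp3 through 93.6 ± 17.7 for Abca4, 82.4 ± 16.5 for Rdh12, 62.2 ± 10.0 for Rlbp1 and 29.4 ± 3.52 for Rdh8 (SD, n = 3). Abca4 overlapped with Rdh12, and Rdh12 with Rlbp1. The other 5 were lower, with Rpe65 at 9.02 ± 5.40, Rgr at 8.08 ± 4.82, Rdh10 at 4.78 ± 0.936, Lrat at 2.53 ± 1.55 and Rdh5 at 1.22 ± 0.234 CPM per kb, and each overlapped with the next. In tHet, Rdh12 at 109.8 ± 26.6 and Abca4 at 96.8 ± 30.6 CPM per kb overlapped, and Rgr overlapped with Rpe65 and Rdh10 with Lrat. In Tet tcKO, Rbp3 remained first at 288 ± 108 CPM per kb and Abca4 second at 48.5 ± 12.0, now apart from Rdh12 at 23.3 ± 11.4, which overlapped with Rlbp1 at 20.5 ± 7.57. Rdh10 at 8.88 ± 1.58 CPM per kb reached the level of Rdh8 at 8.65 ± 2.86, with which it overlapped. Rgr, Rpe65, Lrat and Rdh5 followed at 2.29 ± 0.457, 2.01 ± 0.419, 0.691 ± 0.200 and 0.518 ± 0.185 CPM per kb, with overlap between Rgr and Rpe65 and between Lrat and Rdh5.

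**Figure D4:**
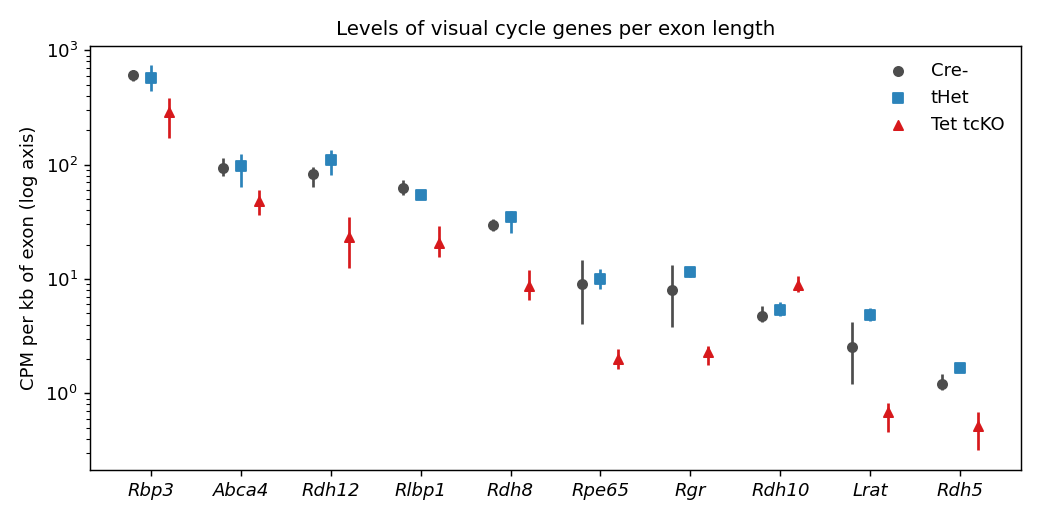
Level per kilobase of exon (CPM per kb, log axis) of the 10 genes, ordered by the Cre- mean. Symbols are means of 3 libraries and bars run from the lowest to the highest library, with Cre- in grey, tHet in blue and Tet tcKO in red. Rbp3 is first in each genotype, and Rdh10 stands beside Rdh8 in Tet tcKO at 8.88 and 8.65 CPM per kb.

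The genes nearest to each of the 10 across the 9 libraries were found by the root mean square difference of their log2(CPM + 0.5) profiles after each was centred on its mean, which describes these libraries only. Nearest to Rgr were Ttr (0.17), Rpe65 (0.19) and Lrat (0.20) log2 units. Nearest to Rpe65 were Rgr (0.19), Ttr (0.28) and Lrat (0.34), and to Lrat Rgr (0.20), Ttr (0.25) and Trf (0.33). Of the photoreceptor genes, Rdh8 was nearest to Nxnl1 (0.08), Slco4a1 (0.12) and Icmt (0.12), Rdh12 to Gm15507 (0.18), Gm48581 (0.19) and Rnf207 (0.20), Abca4 to Kcnv2 (0.09), Klhl18 (0.09) and Tet3 (0.10), and Rbp3 to Rps6ka2 (0.13), Catspere2 (0.14) and Slc17a7 (0.14). Rlbp1 was nearest to Abca8a (0.16), Lbh (0.16) and Glul (0.17), Rdh10 to Oas1c (0.07), Axl (0.07) and Klhl23 (0.12), and Rdh5 to Atp6ap1l (0.17), Cdc25c (0.21) and Prcd (0.25). Of these, Oas1c was under 3 reads in 3 libraries and Gm15507, Atp6ap1l and Cdc25c in 1 library each, where the added 0.5 CPM flattens a profile, and exons of Gm15507 overlap those of Nr2e3. Rgr thus stood nearer to the pigment epithelium genes than to Rlbp1, which was not among its nearest 3, and the ratio of Rgr to Rlbp1 was 0.332 to 0.356 in every tHet library, above 0.113 to 0.293 in Cre- and 0.144 to 0.259 in Tet tcKO.

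Of 38 further genes of retinoid handling, 26 were tested. In Tet tcKO versus Cre-, 4 rose (Aldh1a3, Cyp26a1, Rbp4 and Rdh1) and 0 fell, where 2.03% of all tested genes rose and 1.57% fell. In Tet tcKO versus tHet, 2 rose (Cyp26a1 and Rbp4) and 1, Ttr, fell, where 1.39% of all tested genes rose and 1.61% fell. Rbp4 passed the filter on low values only through the Tet tcKO libraries. The median log2 fold change of the list was 0.07 and 0.09, beside 0.00 and -0.06 over all tested genes. Under leave-one-library-out the calls against Cre- numbered 1 to 6, with 1 without Tet tcKO replicate 1 (Cyp26a1) and 2 without Tet tcKO replicate 3 (Cyp26a1 and Rdh1). In the latter fit neither Aldh1a3 against Cre- (2.45, limma adjusted p = 0.0168) nor Ttr against tHet (-2.14, limma adjusted p = 0.0325) passed.

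The genes that rose make, break down or carry retinoids outside the visual cycle. Cyp26a1, which encodes a hydroxylase that clears retinoic acid, was counted at 1.41, 3.37 and 2.03 CPM in the Cre- libraries, 2.38, 0.935 and 2.27 CPM in the tHet libraries and 11.8, 13.3 and 10.7 CPM in the Tet tcKO libraries. All Tet tcKO libraries lay above the rest, with a log2 fold change of 2.22 (SE 0.35, limma adjusted p = 0.000338) against Cre- and 2.46 (SE 0.35, limma adjusted p = 0.000152) against tHet. Aldh1a3, which encodes a synthetic enzyme of retinoic acid, was counted at 0.648, 0.0636 and 0.338 CPM in the Cre- libraries, 0.720, 1.56 and 3.74 CPM in the tHet libraries and 3.98, 3.95 and 2.77 CPM in the Tet tcKO libraries. Its log2 fold change was 2.30 (SE 0.41, limma adjusted p = 0.00106) against Cre- and 0.87 (SE 0.41, limma adjusted p = 0.275) against tHet, with overlap between Tet tcKO and tHet.

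Rbp4, the carrier of retinol in blood, was at 1 or 2 reads in each Cre- library, 1 to 3 reads in each tHet library and 167, 134 and 82 reads in the Tet tcKO libraries, the last equal to 9.92, 8.83 and 4.94 CPM. Pooled over libraries its CPM was 93.6 times that of Cre- (95% interval 36.2 to 345, counting error only) and 50.2 times that of tHet (24.1 to 126). Rbp4 reached 0.5 CPM in the 3 Tet tcKO libraries only, so it passed the filter through the genotype in which it was high. Its call in limma is therefore not taken as support. It was not tested when any of these libraries was left out. Its fitted log2 fold change against Cre- ran from 2.99 with a pseudocount of 1 to 5.39 with 0.1. Rdh1, at 0.530 to 0.700 CPM in Cre- and 2.35 to 3.38 CPM in Tet tcKO, had a log2 fold change of 1.60 (SE 0.32, limma adjusted p = 0.00261) against Cre-, and its exons overlap those of Rdh16f1, which makes its value uncertain. Of the most abundant genes of the list, Aldh1a1, another retinaldehyde dehydrogenase gene, was at 49.9 to 82.8 CPM in Cre- and 115 to 188 CPM in Tet tcKO (1.04 (SE 0.25, limma adjusted p = 0.0119) against Cre-) and did not pass. Dhrs3, a reductase of retinal, was at 53.1 to 61.8 CPM in Cre- and 32.2 to 50.9 CPM in Tet tcKO (-0.41 (SE 0.22, limma adjusted p = 0.383)) and did not pass either.

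**Figure D5:**
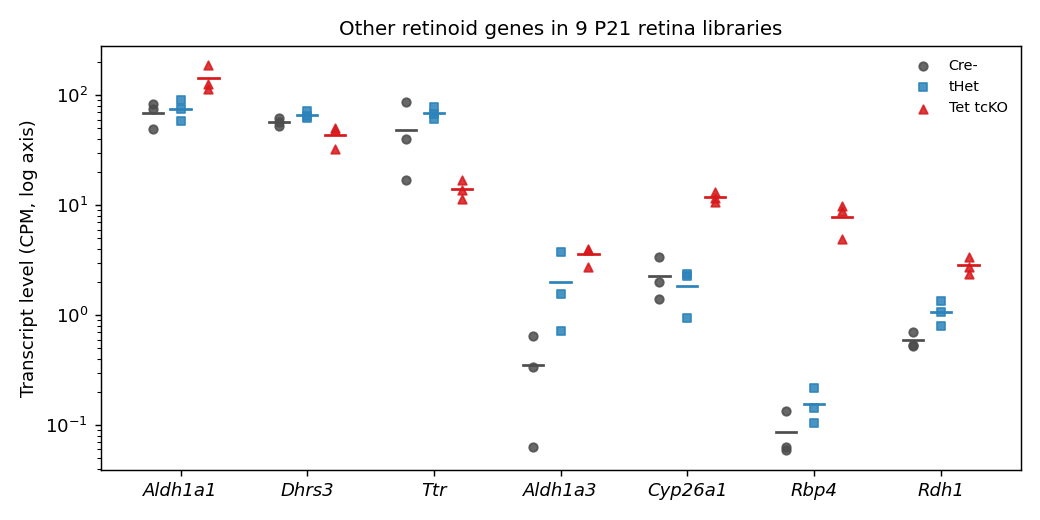
Transcript level (CPM, log axis) in the 9 libraries of the retinoid genes outside the 10 that were called in any comparison, together with the 3 most abundant of the list. Points are libraries and short lines are means. The Tet tcKO libraries lie above all others for Cyp26a1, Rbp4, Rdh1 and Aldh1a1 and below all others for Ttr and Dhrs3.

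Markers of the ciliary body, the epithelium that borders the retina, were also higher in Tet tcKO than in Cre-. The 3 markers summed to 36.6 to 60.6 in Cre-, 155 to 231 in tHet and 246 to 308 in Tet tcKO (CPM). All 3 rose in Tet tcKO versus Cre- and 2 (Optc and Col9a1) rose in tHet versus Cre-, beside 0 with edgeR and 3 with DESeq2. In Tet tcKO versus tHet 0 of the 3 were called in limma, 1 had an unadjusted p under 0.05, and 0 were called by edgeR or DESeq2. Their part in the values of Aldh1a3, Cyp26a1, Rbp4 and Rdh1 was not tested.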

How the data were processed

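Total RNA of P21 retinas was depleted of ribosomal RNA and made into stranded libraries, which were sequenced in 1 pool. The authors trimmed the reads with Trim Galore 0.6.7, aligned them to mm10 with STAR 2.7.0f and counted them on genes with HTSeq 0.11.2. The annotation release and the strand setting of the counting are not given in the sources used here. The authors deposited CPM values for 55487 genes, scaled to the plain library total. They also deposited columns of p-values, log2 fold changes and log2 CPM from their own edgeR comparisons, which were not used. Libraries were grouped by the genotype in the labels. The p-values measure the spread between libraries, each a pool of 2 animals.

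Every CPM value above 0 equalled a whole number of reads within 0.01 reads (100% of values), so the reads were recovered. The 21330 genes that reached 0.5 CPM in 3 or more libraries were tested as log2(CPM + 0.5) in limma 3.58.1 with R 4.3.3, all 9 libraries in 1 fit with 1 mean per genotype, an intensity trend and Benjamini-Hochberg adjustment over all tested genes. The study's thresholds were kept. Alternatives were other pseudocounts, filters and scalings, edgeR 4.0.16 and DESeq2 1.42.0 on recovered reads, a replicate block, the 6 libraries of a comparison alone, and leaving out each library. TMM scaling in limma, leaving out CT010467.1 and the ratios to Ttr, Crx and Slc1a3 were chosen after seeing the data. Ratios within a library were compared with exact two-sided permutation tests. The fits were tested on simulated data. Libraries of the same genotype differed by more than sampling noise.

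The members, the lists of markers and the other retinoid genes were chosen with earlier results of these data known. Of the other retinoid genes, those called in any comparison and the 3 of highest mean CPM were named, and for each member the 3 nearest genes. Positions and exon lengths came from GENCODE release M21 (GRCm38) and upstream sequences from RefSeq (GRCm38.p6). Summaries used Python 3.11.15, and plots matplotlib 3.10.9.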

Additional observations from a re-analysis of the deposited data

How the results depend on the processing

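Of the 10 genes in 3 comparisons under 20 alternatives, 549 values kept their direction and side of the threshold, 36 lost a call, 5 gained one and 10 turned their sign. The sign turned only in tHet versus Cre-, where none of the 10 was called. There Abca4 was 0.01 in log2 and became -0.065 with upper-quartile scaling, -0.048 with TMM scaling in limma, -0.036 with edgeR and -0.039 with DESeq2, and ran from -0.19 to 0.29 with a library left out. Rbp3 ran from -0.31 to 0.055 and Rpe65 from -0.15 to 0.76. The visual cycle genes called against Cre- numbered 3 without the filter, 3 with TMM scaling in limma and 2 to 6 with a library left out, and those against tHet 3 to 7 with a library left out. The causes were not tested.

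All genes called against Cre- numbered 768 and became 417 without the filter, 1156 at an adjusted p under 0.05 and 331 to 982 with a library left out. Against tHet they numbered 640 and became 351 without the filter, 1046 with DESeq2, 1013 with only the 6 libraries, 1104 at an adjusted p under 0.05 and 252 to 973 with a library left out. In tHet versus Cre- they numbered 9 and became 1 without the filter, with upper-quartile scaling, with TMM scaling in limma, with CT010467.1 left out, with edgeR and with only the 6 libraries, 40 with DESeq2, 20 at an adjusted p under 0.05 and 0 to 17 with a library left out.

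Libraries with the same replicate number came from different animals, and their deviations from the genotype means correlated by 0.111 on average (-0.35 to 0.56), so the numbers were not taken as pairs. With the replicate block, 6 visual cycle genes were called against Cre-, 7 against tHet and 0 in tHet versus Cre-, while all genes called numbered 1127, 1125 and 40. With 3 libraries per genotype an exact test cannot go below 0.1, and Rdh5 had the fewest reads of the 10 genes, at 15 to 101 per library.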
